A study of Mus musculus with 2 samples.

Results

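The alignments described here are the long, uniquely placed ones that fell outside the target of a Cas9-targeted nanopore experiment, nCATS, and on the autosomes. They were chosen by their mapping quality, the aligner's score for how unique a placement is, which had to be at its maximum of 60, by a length of at least 1000 bp, and by a read name listed once. They also had to lie on chromosomes 1 to 19 and outside chr2:75260000-75290000, which holds the target. Of 12642 deposited alignments in 2 libraries, 8159 met these conditions, or 64.5%. The library labelled II1 T-DOM 542 gave 2322 of its 4218 alignments (55.0%), and the library labelled II1 T-DOM 320 gave 5837 of its 8424 (69.3%).

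Both libraries were made from purified genomic DNA of yolk sacs of E12.5 mouse embryos, from crosses of heterozygous adults on a B6CBAF1 background. Each allele places the II1 element of the HoxD locus in the T-DOM regulatory domain, and the DNA was dephosphorylated, cut with Cas9, ligated to adapters and read on a minION. Allele 542 was kept as a single mouse line, and how many yolk sacs went into each library was not given in the sources used here. There was 1 library per allele and no replicate, so each test below between the libraries compares 2 libraries, not 2 alleles. Tests of alignments that missed a single condition compare them with the chosen alignments of the same library. Intervals cover counting error only.

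As background, Cas9 is led by a guide RNA to a protospacer that is followed by a short motif, the PAM, whose last bases are a pair of guanines, and it cuts a few bases before that motif. Dephosphorylation leaves old DNA ends unable to take an adapter, so the reads of such a library start mainly at ends made after it. DNA that breaks later, or ends that escaped the phosphatase, can also take adapters and give reads from anywhere in the genome.

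The start of an alignment is used below as its 5′ end, the one that was read before the rest, and bases are numbered from 1 at the first aligned base in the direction of the read. A small set of starts shows the measurement that the results turn on. Each line gives 60 bases of the mm10 reference in read direction, 30 before the first aligned base and 30 from it. Capitals mark the 6 bases on each side of that point, so the first aligned base is the seventh capital. The longest member and the members in the windows of highest and lowest GC content are shown for each library, with a start shared by 4 members and, chosen after the base profile described below had been seen, the next longest members with a pair of guanines or cytosines at the peaks of the 320 library.
542, longest member, 37748 bp, chr1:86324870-86324929, plus strand, intergenic: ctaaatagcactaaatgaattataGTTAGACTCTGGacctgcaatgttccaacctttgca
542, highest GC window, chr2:35661294-35661353, minus strand, intron of Dab2ip: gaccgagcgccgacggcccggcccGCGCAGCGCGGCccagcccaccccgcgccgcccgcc
542, lowest GC window, chr15:14042803-14042862, plus strand, intergenic: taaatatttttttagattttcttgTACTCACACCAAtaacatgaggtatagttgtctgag
542, start shared by 4 members, chr17:68123046-68123105, plus strand, intron of a lincRNA gene: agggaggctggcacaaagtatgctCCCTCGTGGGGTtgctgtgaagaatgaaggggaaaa
542, next longest with the guanine pair, 30826 bp, chr11:33894586-33894645, minus strand, intron of Kcnip1: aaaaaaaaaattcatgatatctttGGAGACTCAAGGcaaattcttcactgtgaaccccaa
542, next longest with the cytosine pair, 28502 bp, chr12:25439044-25439103, plus strand, intron of Gm36723: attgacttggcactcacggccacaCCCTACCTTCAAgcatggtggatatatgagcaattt
320, longest member, 118279 bp, chr4:129862423-129862482, plus strand, intergenic: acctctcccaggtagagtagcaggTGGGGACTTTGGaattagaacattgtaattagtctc
320, highest GC window, chr6:116193004-116193063, minus strand, intron of Tmcc1: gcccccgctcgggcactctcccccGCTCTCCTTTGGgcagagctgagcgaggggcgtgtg
320, lowest GC window, chr16:71272762-71272821, minus strand, intergenic: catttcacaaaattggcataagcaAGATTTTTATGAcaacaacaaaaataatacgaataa
320, next longest with the guanine pair, 74976 bp, chr1:143924264-143924323, minus strand, intergenic: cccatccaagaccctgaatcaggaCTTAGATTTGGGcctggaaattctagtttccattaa
320, next longest with the cytosine pair, 73322 bp, chr4:104421640-104421699, plus strand, intron of Dab1: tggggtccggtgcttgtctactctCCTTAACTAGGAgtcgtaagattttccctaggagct

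The 5′ ends of the members were not a neutral sample of bases. In the 320 library, 1809 of 5837 members (30.99%, 95% Clopper-Pearson interval 29.8 to 32.2%) had guanines at bases 5 and 6 of the alignment. At distances of over 15 bp from the start, the share with a guanine pair averaged 5.68% and never passed 6.15% over 49 positions. A pair of cytosines stood 6 and 5 bases before the start in 1022 members (17.5%, interval 16.5 to 18.5%), against an average of 5.64% farther away. The guanine peak was narrow, with 897 members (15.4%) 1 base further to the right. The cytosine peak was broader, with 15.4% at that step and 9.61% at the next.

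In the 542 library the guanine pair was most frequent 1 base later, at bases 6 and 7, in 437 of 2322 members (18.8%, interval 17.2 to 20.5%). At bases 5 and 6 it was found in 271 (11.7%, interval 10.4 to 13.05%), and farther away in 5.49% on average. The cytosine pair 6 and 5 bases before the start was less frequent than in the 320 library, with 234 members (10.1%, interval 8.88 to 11.4%) against 6.03% farther away. The cytosine peak of this library lay at the start itself, where the base before the start and the first aligned base were both cytosines in 22.6% of the 542 members. The same pair was found in 6.48% of the 320 members. Each library thus had a guanine peak a few bases inside the alignments. The cytosine peak lay before them in the 320 library and across the start in the 542 library, where the shares 6 to 3 bases before it were nearly level, between 9.22 and 10.1%.

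**Figure D1:**
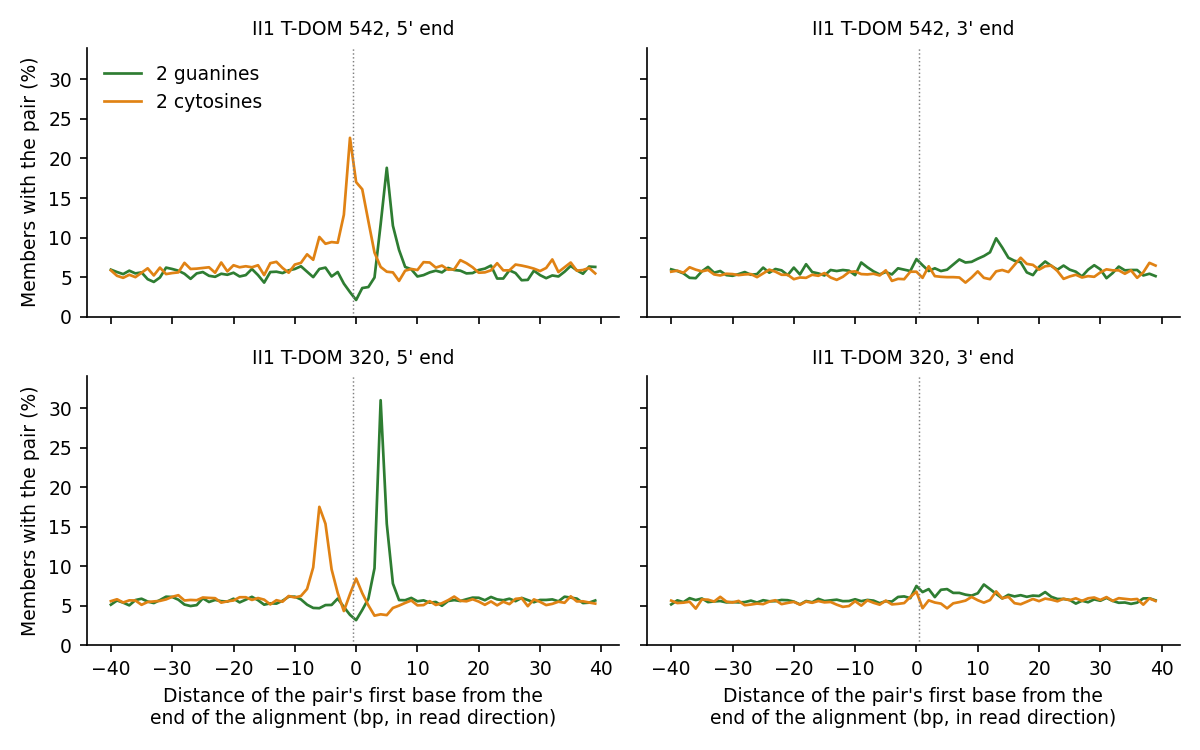
Share of members (vertical axis, percent) with 2 guanines (green) or 2 cytosines (orange) at each distance in bp (horizontal axis, read direction, 0 is the terminal aligned base) from the 5′ end (left) and 3′ end (right) of the alignments, with the 542 library above and the 320 library below. The guanine curve peaks at 18.8% and 30.99% just inside the 5′ ends, and the curves at the 3′ ends stay under 10%.

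A cut by Cas9 lies 3 bp from the PAM. In a read that runs from such a cut towards the PAM, 3 bases of the protospacer and 1 free base would come before the guanines, at bases 5 and 6. In a read that runs the other way, the PAM would appear as cytosines 6 and 5 bases before the start. These are the distances of the peaks in the 320 library, and how the fragments arose was not tested. For a count of members with such a pair, either place was taken with a tolerance of 1 base, as guanines at bases 5 and 6 or 6 and 7, or cytosines 6 and 5 or 5 and 4 bases before the start. This definition was chosen after the profile had been seen.

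By that definition, 3553 of the 320 members had a pair in place (60.9%, interval 59.6 to 62.1%) and 899 of the 542 members (38.7%, interval 36.7 to 40.7%). When the same places were moved along the reference by 16 to 50 bp in either direction, over 70 shifts, the share averaged 18.5% in the 320 library, with a highest value of 19.4%, and 18.7% in the 542 library, with a highest value of 21.2%. The libraries therefore had similar values away from the start and differed by 22.2 percentage points at it. This difference is a description, since the places were set on the profile, mainly at the 320 peaks. They leave out the 542 cytosine peak across the start. Guanine pairs were in place in 2307 of the 320 members (39.5%) and 599 of the 542 members (25.8%), and cytosine pairs in 1517 (26.0%) and 368 (15.8%). Members with both were fewer than the product of these shares gives. In the 320 library 271 members had both, where the product gives 599.6, and in the 542 library 68, where it gives 94.9.

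The pattern belonged to the starts of the alignments. At the 3′ ends, the same count gave 18.9% of the 542 members and 20.5% of the 320 members. A smaller guanine peak lay beyond the 3′ ends, with 9.91% of the 542 members at 13 bp past the last aligned base and 7.69% of the 320 members at 11 bp past it. In the middle of the alignments, 17.9% and 17.4% had a pair in place.

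Single bases beside the start were also uneven. Among the 320 members, the base before the start was adenine in 48.6%, against 29.02% of the autosomal reference. The first aligned base was thymine in 39.1%, cytosine in 35.3% and guanine in 8.93%, against 29.05, 20.96 and 20.97% in the reference. Among the 542 members, the first aligned base was cytosine in 47.4% and guanine in 8.87%. Where a 320 member had only the guanine pair, adenine stood before the start in 74.1% and cytosine opened the alignment in 51.9%. Where it had only the cytosine pair, the alignment opened with thymine in 69.2%. The 2284 members of the 320 library with neither pair had 34.9% adenine before the start, closer to the reference, but still opened with thymine in 38.6% and with guanine in 13.2%. In the 542 library, the 1423 members with neither pair still opened with cytosine in 41.5%. The aligner sets the exact first base, and how far adapter bases or its choices shaped these shares was not tested.

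The guides of the study that lie on both sides of the target are SCS12, attaaaacgtcgGAGACTCA, and SCS13, agatcgcagccaCCCCACGA, and SCS14, tgattacgaccgCTCACGCG, lies within the transgene. Capitals mark the 8 bases next to the PAM, the part of a guide that tolerates mismatches least. At 1156 places where a pair put a PAM at the start of a 542 member, 27 protospacers matched SCS12 at 7 or 8 of these bases (2.34%, interval 1.54 to 3.38%). At pairs found 16 to 40 bp away in the same members, 9 of 13276 did (0.0678%, interval 0.0310 to 0.129%). For SCS13 the counts were 14 of 1156 (1.21%, interval 0.664 to 2.02%) and 0 of 13276, which allows an upper limit of 0.0278%. Members that share a start are counted singly here. With 1 member per place, an alternative chosen after seeing the data, 24 of 1144 matched SCS12 (2.10%, interval 1.35 to 3.11%) and 11 matched SCS13 (0.962%, interval 0.481 to 1.71%). For SCS14 1 of 1156 matched (0.0865%, interval 0.00219 to 0.481%), and 1 of 13276 away from the start (0.00753%, interval 0.000191 to 0.0420%). The start in Kcnip1 shown above holds the last bases of SCS12 followed by a PAM. At the start shared by 4 members on chromosome 17, the other strand holds the last bases of SCS13 followed by a PAM.

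Among the 320 members SCS12 showed no such excess. It was matched at 7 or 8 of its last 8 bases by 4 of 4625 protospacers at the start (0.0865%, interval 0.0236 to 0.221%) and by 30 of 32747 away from it (0.0916%, interval 0.0618 to 0.131%). SCS13 was matched by 1 of 4625 (0.0216%, interval 0.000547 to 0.120%) and by 4 of 32747 (0.0122%, interval 0.00333 to 0.0313%). Close matches over the whole guide were few. Starts at a site with 15 or more of 20 bases of SCS12 were 12 of the 542 members (0.517%) and of SCS13 11 (0.474%), and 0 of the 320 members had either, which allows a share of up to 0.0514%. Of the 1156 protospacers at starts of 542 members, 10 matched SCS12 and 7 matched SCS13 at 15 or more bases. On average they matched SCS12 at 2.66 of its last 8 bases, against 2.05 away from the start. The means were 2.16 against 1.84 for SCS13 and 2.28 against 1.88 for SCS14. SCS14 had 1 close match at the start and 1 away from it, too few to tell whether there was an excess. At the 320 starts the means were 2.06 against 2.05 for SCS12, 2.01 against 1.86 for SCS13 and 1.89 against 1.89 for SCS14. The bases near the start are uneven in themselves, and their part in these averages was not tested. The methods name these guides for both alleles, and why the 320 starts lacked such matches was not tested.

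The share of members with a pair was examined across the other properties of the members. It was higher in GC-rich surroundings, from 56.0% in the lowest GC quintile to 65.3% in the highest among the 320 members, while at the shifted places it went from 12.4 to 24.04%. Among the 542 members it went from 30.6 to 44.4%, and at the shifted places from 12.48 to 24.3%. Length made little difference. Over quartiles of length the share ran from 59.1 to 63.3% in the 320 library and from 38.5 to 39.0% in the 542 library. In genes it was 62.0% and outside them 59.7% in the 320 library, and 39.5 and 38.0% in the 542 library. On repeat bases 57.7% of the 320 members had a pair (interval 55.3 to 60.1%), and on other bases 62.1% (interval 60.6 to 63.6%), while the 542 shares were 38.4 and 38.9%. By chromosome, the 320 share lay between 53.8% on chromosome 12 and 66.96% on chromosome 7, and the 542 share between 24.2% on chromosome 3 and 47.3% on chromosome 9.

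**Figure D2:**
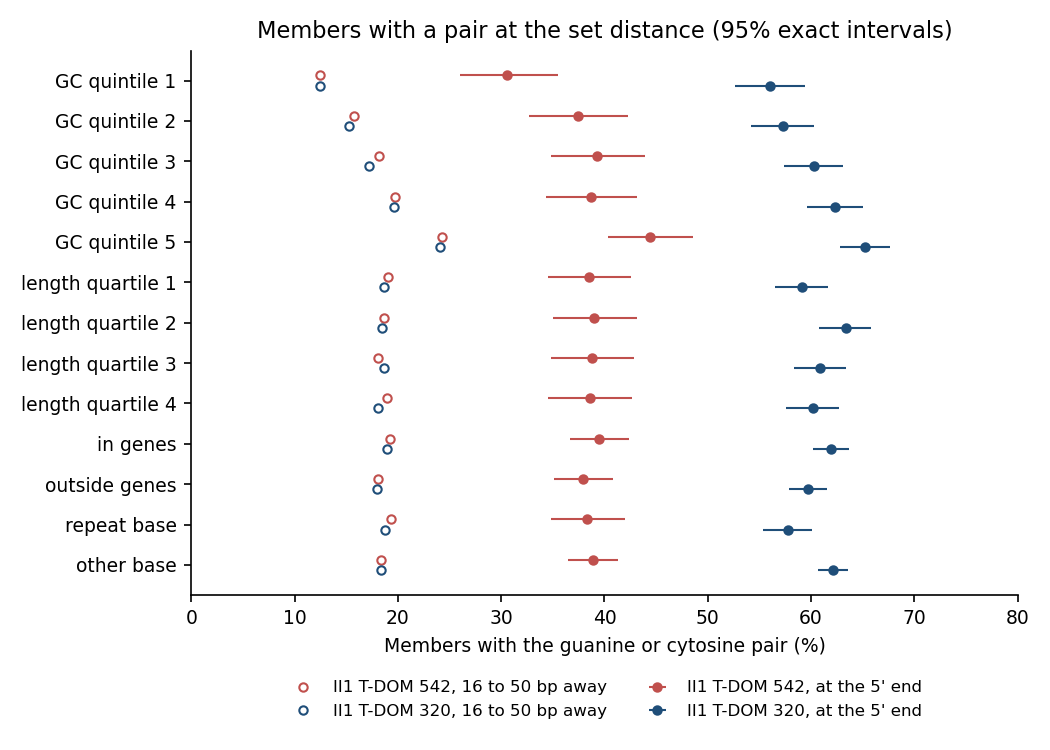
Share of members with a guanine or cytosine pair in place (horizontal axis, percent) by class of member (vertical axis). Filled points give the share at the 5′ end with its 95% Clopper-Pearson interval, open points the mean over the same places moved by 16 to 50 bp, red for the 542 library and blue for the 320 library. Every class lies far above its open point, and the 320 library is above the 542 library in each.

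The pair was also counted in alignments that missed a single condition. Shorter alignments, from 200 bp to just under 1000 bp, had it in 58.6% of 771 in the 320 library and in 41.4% of 693 in the 542 library, and no difference from the members was detected (adjusted p = 0.239 for both, two-sided Fisher's exact tests with Benjamini-Hochberg adjustment over 6 comparisons). Of the alignments with a lower mapping quality, 56.3% of 190 and 31.6% of 117 had it, with the same adjusted p. Alignments of reads listed more than once had it less often in the 320 library, in 126 of 340 (37.1%, interval 31.9 to 42.4%, adjusted p = 7.00e-17, the same exact tests). For 542 the count was 18 of 70 (25.7%, interval 16.01 to 37.6%, adjusted p = 0.0996, exact test). A read listed more than once can give several of these alignments, which the tests count singly. Not all of them begin where the read begins, so their shares are not measured at the same kind of end as those of the members. The reason for the lower shares was not tested.

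The members are called here the uniquely mapped autosomal alignments. Neither pair was in place in 61.3% of the 542 members and 39.1% of the 320 members. How many of the members are background was not tested. The spread of the members over the genome, given next, was thin and reached every autosome, but it followed GC content. Density fell at every step of repeat content in the 320 library and less evenly in the 542 library, a difference that was not tested.

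The members were thinly spread. The 542 library had 0.969 5′ ends per Mb of autosomal reference, with unknown bases left out, and the 320 library 2.44. The 542 members covered 0.442% of the autosomes and the 320 members 2.58%, with a mean depth of 0.00445 and 0.0262. The deepest position was covered by 4 members in the 542 library and 3 in the 320 library, and 1.46% and 6.24% of members overlapped another. They held 79.2% of all aligned bases of the 542 library and 84.1% of the 320 library. The strands were even, with 50.8% of the 542 members on the plus strand (interval 48.8 to 52.9%) and 49.6% of the 320 members (interval 48.3 to 50.9%).

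Shared starts were rare. Within 10 bp of another member of the same strand started 17 of the 542 members, at 7 places, and 2 of the 320 members, at 1 place. Of the 7 places, 2 held 3 or more members: chromosome 17 near position 68123076, with 4 members, and chromosome 10 at position 7637922, in Pcmt1, with 3. The place on chromosome 17 is the one with the SCS13 match given above. A guanine or cytosine pair was in place in 15 of the 17 members (88.2%, interval 63.6 to 98.5%), against 38.4% of the other 542 members. Both of the 2 members of the 320 library had one. No start of the 542 library lay within 10 bp of a start of the 320 library on the same strand (0 of 2322). What count unrelated starts would give at these densities was not tested, so no conclusion is drawn from it.

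Lengths differed between the libraries. Length chose the members, so it is described without a test. The 542 members had a median of 3118.5 bp and the 320 members one of 7246 bp. Quartiles ran from 1818 to 5637 bp and from 3537 to 14296 bp, and the longest members were 37748 and 118279 bp. At 10 kb or more were 197 of the 542 members (8.48%) and 2147 of the 320 members (36.8%). At the threshold, the shortest members lay within 1 bp of 1000 bp and the longest alignments left out for length alone within 2 bp of it. In the 100 bp below the threshold there were 91 and 71 alignments, and in the 100 bp from it 78 and 61. In mapping quality, the highest value left out was 59 in both libraries, and 8 and 13 long single alignments had 50 to 59. Lengths were similar across GC quintiles, with medians of 3014 to 3337 bp in the 542 library and 6751 to 7773 bp in the 320 library.

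**Figure D3:**
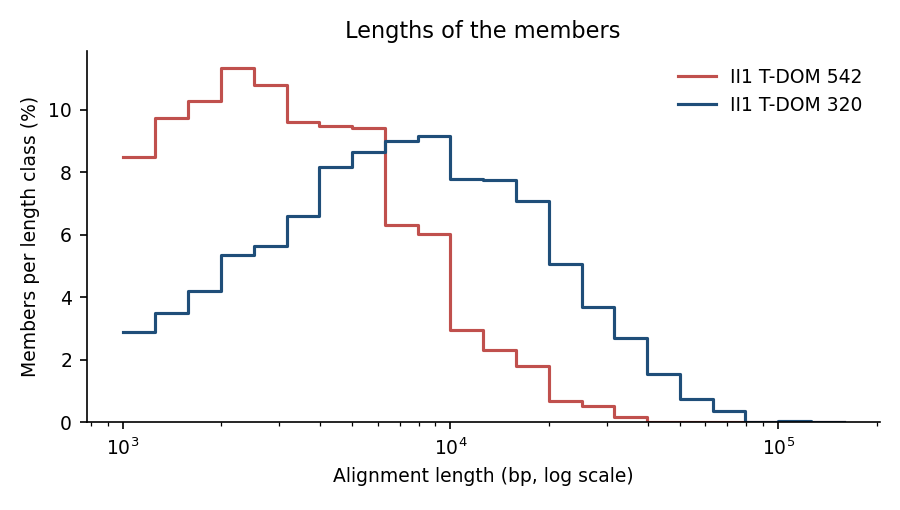
Share of members (vertical axis, percent) per length class (horizontal axis, bp, log scale), red for the 542 library and blue for the 320 library. The medians are 3118.5 and 7246 bp, and the 320 library reaches 118279 bp.

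By chromosome, densities stayed within a narrow range. In the 542 library the highest were chromosome 11 with 1.17 5′ ends per Mb (95% exact Poisson interval 0.984 to 1.38), chromosome 17 with 1.13 (0.927 to 1.37) and chromosome 12 with 1.103 (0.921 to 1.31). The lowest were chromosome 6 with 0.834 (0.692 to 0.995), chromosome 18 with 0.869 (0.685 to 1.09) and chromosome 10 with 0.897 (0.740 to 1.08). The ratio of the highest to the lowest was 1.40, and the library mean lay outside the interval of 1 chromosome of 19, chromosome 11. In the 320 library chromosome 19 had 2.89 (2.47 to 3.36), chromosome 15 had 2.80 (2.48 to 3.15) and chromosome 9 had 2.78 (2.49 to 3.09), and the mean lay below these 3 intervals. Chromosome 16 had the lowest density, 2.12 (1.83 to 2.43), with the mean above its interval, then chromosome 14 with 2.17 (1.91 to 2.44) and chromosome 13 with 2.25 (1.98 to 2.53). The ratio of the highest to the lowest was 1.36. The order depended on the settings. With a longer minimum length the 542 library had chromosome 12 at the top, with bases outside repeats chromosome 17, and with aligned bases in place of 5′ ends chromosome 19, with chromosome 1 lowest and 0 of the 3 highest shared. For 320 the top was chromosome 11 by aligned bases and chromosome 15 among members of 1000 to 5000 bp, where 1 of the 3 highest was shared and the ratio was 1.70.

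No chromosome's share of the members differed between the libraries after adjustment. Of 19 two-sided Fisher's exact tests, 1 against the other autosomes each, 0 passed an adjusted p of 0.05 (0.0%), and the smallest was 0.443. Before adjustment 1 passed, chromosome 4, which had 167 of the 542 members and 342 of the 320 members (exact test, p = 0.0257). Over 19 chromosomes the densities of the libraries had a Pearson r of -0.015 and a Spearman rho of -0.18, but most of their intervals held the library mean, and what values a shared order would give at this depth was not tested. With the GC content of the chromosome, r was 0.46 for the 542 and 0.58 for the 320 densities (rho 0.32 and 0.59). With the chromosome's share of repeat bases it was -0.10 and -0.61 (rho 0.07 and -0.56). With the share of bases in genes it was -0.01 and 0.55 (rho -0.05 and 0.51). These are descriptions over 19 chromosomes that share a library and whose GC, gene and repeat content vary together.

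**Figure D4:**
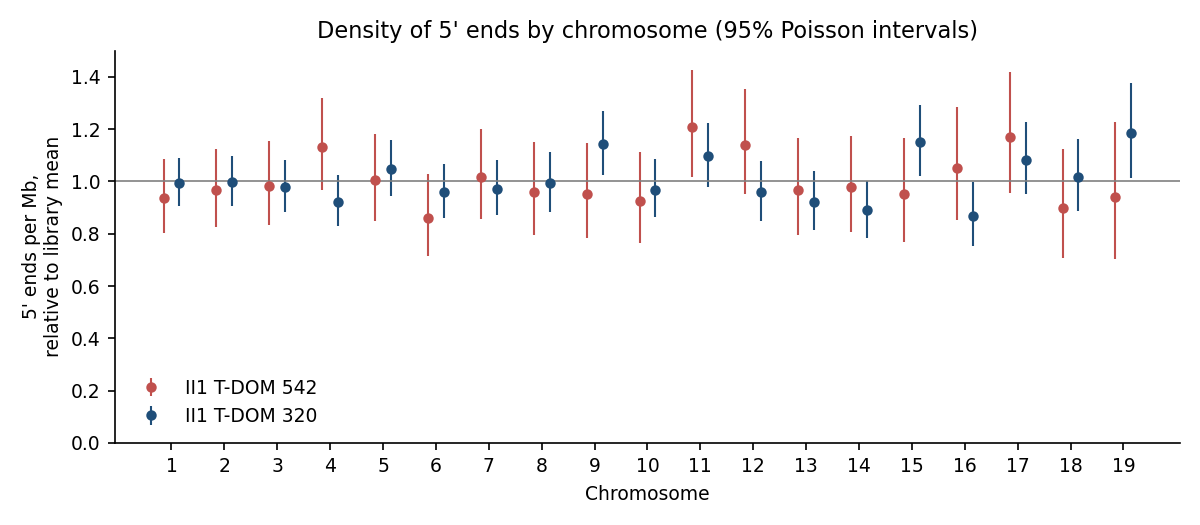
Density of 5′ ends per Mb relative to the library mean (vertical axis) on chromosomes 1 to 19 (horizontal axis), red for the 542 library and blue for the 320 library, with 95% exact Poisson intervals. The mean, at 1, lies within the interval of every chromosome except 11 in the 542 library and 9, 15, 16 and 19 in the 320 library.

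At a finer scale, 245 bins of 10 Mb were compared, and 0 passed the adjusted threshold (0.0%), with a smallest adjusted p of 0.729. Before adjustment 14 had a p under 0.05. The smallest unadjusted p belonged to chr4:70000001-80000000, with 12 of the 542 members and 8 of the 320 members (exact test, p = 0.00436), where the 320 density was the lowest of all bins at 0.328 of its mean. The densest bin of the 320 library was the first of chromosome 17, with 31 members and 1.83 times the mean, and of the 542 library chr11:90000001-100000000, with 21 members and 2.17 times the mean. No bin was empty in either library. With each chromosome divided into 10 equal parts, density relative to the library mean ran from 0.925 to 1.08 in the 542 library and from 0.964 to 1.09 in the 320 library, where the highest value was in the part farthest from the centromere, with 634 members and 2.66 per Mb (2.45 to 2.87).

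Both libraries had more 5′ ends in GC-rich DNA. The reference was divided into windows of 1 kb and the windows into quintiles of GC content, with limits at 37.0, 40.2, 43.2 and 46.6%. From the lowest to the highest quintile, the 542 library had 0.801, 0.866, 0.938, 1.03 and 1.21 5′ ends per Mb. The 320 library had 1.80, 2.19, 2.39, 2.62 and 3.17. Density was higher at every step in both libraries. The highest quintile was 1.51 times as dense as the lowest in the 542 library (exact 95% interval 1.32 to 1.72) and 1.76 times in the 320 library (interval 1.62 to 1.92). The median GC content of the windows was 42.6 and 42.8%, against 41.7% over the reference. In windows of 55% GC or more the 320 library reached 3.72 per Mb (3.18 to 4.33) from 169 members, and the 542 library had 1.23 (0.932 to 1.602) from 56, about the 1.28 of windows from 50 to 55%.

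The highest GC quintile, which makes up 20.2% of the windowed bases, held 25.2% of the 542 members (interval 23.4 to 27.0%) and 26.3% of the 320 members (interval 25.2 to 27.4%). No difference between the libraries was detected (two-sided Fisher's exact test, p = 0.327, adjusted over the 3 planned shares p = 0.327). The difference depended on the settings: it was 2.96 points for members of 1000 to 5000 bp (exact test, p = 0.0402), and -1.99 points with windows of 200 bp (exact test, p = 0.0719). At the 3′ ends, which had little of the pattern, the shares were 24.5 and 24.4%.

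**Figure D5:**
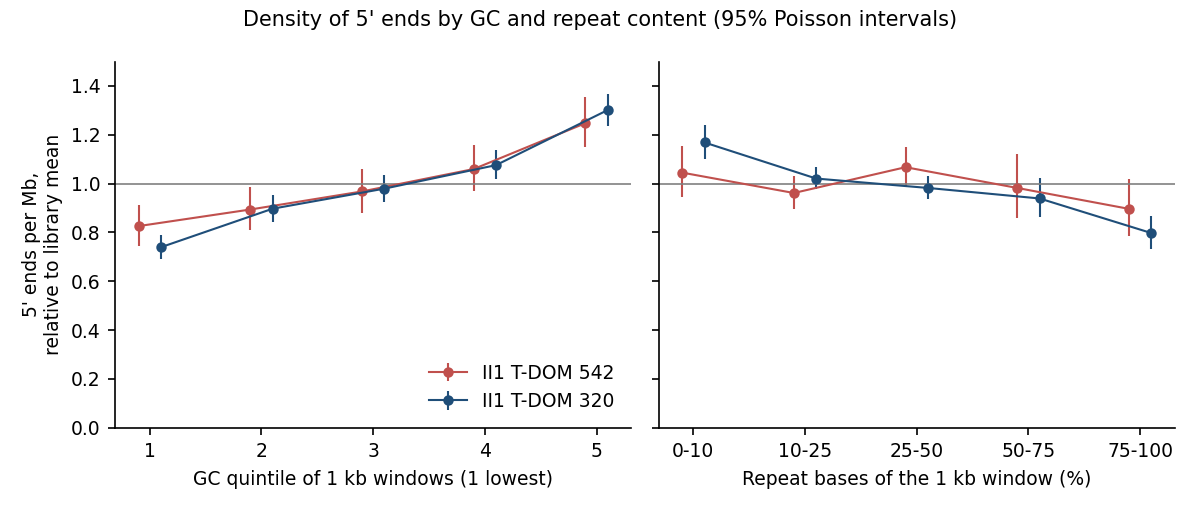
Density of 5′ ends per Mb relative to the library mean (vertical axis) by GC quintile of the 1 kb window (left) and by share of repeat bases in it (right, percent), red for the 542 library and blue for the 320 library, with 95% exact Poisson intervals. Density rises with GC in both libraries. With repeat content it falls at every step in the 320 library and less evenly in the 542 library.

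Repeat bases are the soft-masked bases of the reference, 33.5% of the autosomes, and other repeat annotations may differ from them. Mapping quality, which chose the members, depends on repeats, so a share below the reference is a description. Of the 542 members 31.4% started on a repeat base (interval 29.6 to 33.4%), and of the 320 members 28.6% (interval 27.4 to 29.8%). The share was 2.86 percentage points lower in the 320 library (two-sided Fisher's exact test, p = 0.0113, adjusted over the 3 planned shares p = 0.0340, over all 9 shares compared p = 0.102). The difference was smaller among members with neither pair, where the shares were 31.6% and 30.9% (the same exact test, p = 0.636). At the 3′ ends its direction turned around, with 30.1 and 30.8% (exact test, p = 0.558). The part of the start pattern in it was not tested. By window, the 320 density fell from 2.85 per Mb where under 10% of bases were repeats to 1.94 where 75% or more were. The 542 density was 1.01 (0.915 to 1.12) and 0.869 (0.762 to 0.987) there. Mean GC content also differed between these windows, at 45.3 and 40.9%. Its part in the fall, and whether the fall differed between the libraries, was not tested. Alignments left out for mapping quality alone started on repeat bases in 72.6% of 117 and 68.4% of 190.

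Annotated genes, introns included, cover 48.4% of the autosomes in GENCODE M21. Of the 542 members 1163 started in a gene (50.1%, interval 48.0 to 52.1%), and of the 320 members 3010 (51.6%, interval 50.3 to 52.9%). No difference between the libraries was detected (two-sided Fisher's exact test, p = 0.229, adjusted over the 3 planned shares p = 0.327). Density in genes over density outside them was 1.07 in the 542 library (interval 0.984 to 1.16) and 1.13 in the 320 library (interval 1.08 to 1.19). Within GC quintiles the ratio ran from 0.895 to 1.14 and from 1.01 to 1.15, and its interval held 1 in every quintile but the fourth of the 320 library (1.15, interval 1.03 to 1.29). Genes are themselves richer in GC, covering 37.7% of the lowest quintile and 60.8% of the highest.

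Inside genes, exons held 4.82% of the 542 members (interval 3.99 to 5.78%) and 5.70% of the 320 members (interval 5.12 to 6.33%), against 5.10% of the reference. No difference between the libraries was detected (two-sided Fisher's exact test, p = 0.117, adjusted over all 9 shares compared p = 0.516). Within 1 kb of the start of a protein-coding gene were 1.94% and 1.99% of members, against 1.63% of the reference, which lies within the interval of the 542 library (1.42 to 2.58%) and just below that of the 320 library (1.64 to 2.38%). Members in genes of a single strand lay on the gene's own strand in 50.3% and 51.7%, with intervals that hold 50%. Of the 51229 annotated genes, members started in 1092 in the 542 library (2.13%) and in 2551 in the 320 library (4.98%). Starts of both libraries fell in 317 genes, and how many gene length alone would give was not tested.

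The genes with the most 5′ ends were long ones in the 320 library. The read-through model Gm20388 on chromosome 8, 4434882 bp long, had the most in both libraries, 17 and 8, where its length at the mean density gives 10.8 and 4.30. Pard3b, a cell polarity gene of chromosome 1, had 11 in the 320 library against 2.44 by length, and 3 in the 542 library. Fgfr2, a growth factor receptor gene annotated over 2960900 bp of chromosome 7, had 10 and 3 against 7.21 and 2.87. Wwox, the gene of a common fragile site on chromosome 8, had 8 and 0 against 2.22 and 0.885, and Cntn4, an axonal adhesion gene on chromosome 6, had 8 and 1. Shorter genes followed Gm20388 in the 542 library. The lincRNA gene on chromosome 17 with the shared start above had 6, Syn3, a synapsin gene of chromosome 10, had 5, and Pcmt1, a protein repair gene, and Samd12 on chromosome 15 had 4 each. In the 320 library each of these 4 genes had 0, where length gives 0.126 to 1.09. They were picked as the highest of 51229 annotated genes, so their counts lie above the mean by that choice.

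Long genes of common fragile sites, regions that break under replication stress, were taken as a list of 18. In the 542 library 13 of them held a 5′ end, 25 in all over 27.2 Mb, or 0.949 of the library mean (exact Poisson interval 0.614 to 1.40). In the 320 library 16 held 51, or 0.770 of the mean (interval 0.574 to 1.01). Lrp1b and Magi2 had 0 in the 320 library, where their lengths give 5.01 and 3.60, and Ptprd had 1 against 5.53. These genes have a GC content of 39.6%, below the 41.9% of the autosomes.

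A list of 21 genes active in the yolk sac, among them Afp and Apob of the visceral endoderm, the embryonic globin genes and the vessel genes Kdr and Cdh5, spans 0.837 Mb. The 542 library had 0 5′ ends in it and the 320 library 3, of which 2 were in Cubn, the gene of an endocytic receptor, and 1 in Apob. The interval of the 320 density, 0.304 to 4.30 times its mean, holds 1, and the 542 count of 0 allows up to 4.55 times its mean.

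In the HoxD landscape, chr2:73816509-75669407 from Atf2 to Hnrnpa3 without the target, the 542 library had 0 members, which allows up to 2.09 times its mean density. The 320 library had 7, or 3.84 per Mb (1.54 to 7.91), 1.58 times its mean with an interval of 0.634 to 3.25. These 7 ran from 1183 to 19887 bp, and 0 of them started in the Hoxd gene cluster. The interval also holds the native II1 element, whose reads the paper examined together with those of the insertion. Whether any of the 7 lay there was not tested. Neither library thus showed a density around the locus that could be told from its own mean at this depth.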

How the data were processed

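The deposited tables list, for each alignment, its chromosome, start, end, read name, score and strand. The score is the mapping quality that the authors' aligner gave, from 0 to 60. According to the methods, base calling used Guppy 5.0.16, mapping on mm10 used minimap2 2.15, and the authors filtered with samtools 1.10 and converted with bedtools 2.27.1. The tables hold no read sequence, so all bases are those of the reference. Here, 5′ ends were set against GRCm38 patch release 6, its soft-masked repeats and GENCODE M21 genes, with scipy 1.17.1, pandas 2.3.3, numpy 2.4.6 and matplotlib 3.10.9 under Python 3.11.15. Windows of 1 kb had at most 10% unknown bases, and bins of 10 Mb at least 5 Mb of known ones. Shares have 95% Clopper-Pearson and densities exact Poisson intervals, and a count of 0 has the share of 3 counts or an upper limit. The comparison over bins was tested on simulated data. Named were the 5 genes with the most 5′ ends per library, shared leaders, some genes of the lists and the 3 highest and lowest chromosomes. The members and lists were chosen with earlier results of these data known. The start pattern, its definition and its alternatives were chosen once the data had been looked at. Results of some genes of the lists are not reported by name.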

Additional observations from a re-analysis of the deposited data

Results flagged for a closer look

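A pair of guanines or cytosines at the set distance from the 5′ end was 22.2 percentage points more frequent in the 320 library than in the 542 library, while the libraries were alike at shifted places. The distances were set after the profile had been seen, mainly at peaks of the 320 library, so this value is a description. The share of 5′ ends on repeat bases differed by -2.86 percentage points, 320 minus 542, by a two-sided Fisher's exact test (p = 0.0113, adjusted over all 9 shares compared p = 0.102). It was -0.146 points at the middle of alignments and 0.691 points at 3′ ends. With 1 library per allele, the library, its depth and the allele cannot be told apart in either difference.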

How the results depend on the processing

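Of 128 values under alternatives, 102 kept their direction, their side of the threshold or their interval. No chromosome and no bin was called under any alternative run, among them 472 bins of 5 Mb. The alternative that counts unknown bases changes densities but not the member counts tested, so its result was fixed beforehand. It is included in the 102 values. Median lengths were 3092 and 7205 bp (542 and 320) with a lower mapping quality allowed and 3130.5 and 7300.5 bp with the longest alignment of each read, the only 2 alternatives run for length. The gene share differed by 0.658 to 2.39 percentage points in all 10 alternatives, with no p under 0.122. It became 42.4 and 44.1% (542 and 320) with protein-coding genes only, and 50.1% in the 320 library among members without a pair.

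The share in the highest GC quintile became 29.6 and 27.6% with windows of 200 bp, a difference of -1.99 points that was not significant (exact test, p = 0.0719), and 22.8 and 23.3% among members without a pair, a choice that takes out GC-rich starts by definition. In the 320 library it was 24.0% for the middle of alignments and 24.4% for 3′ ends, where the difference was -0.0998 points (exact test, p = 0.932). From 1000 to 5000 bp the libraries differed by 2.96 points (exact test, p = 0.0402).

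The repeat difference kept its direction, with a p under 0.05, in 5 of 9 alternatives, from -2.93 points with a lower mapping quality allowed (exact test, p = 0.00890) to -3.49 points with a longer minimum length (p = 0.00736). It was -2.93 points from 1000 to 5000 bp (exact test, p = 0.0509), with 26.6% in the 320 library, -0.146 points for the middle of alignments (p = 0.895), with 31.2%, 0.691 points for 3′ ends, with 30.8%, and -0.756 points among members without a pair, with 30.9%. The pair was in place in 17.9 and 17.4% at the middle of alignments, a difference of -0.449 points, and in 18.9 and 20.5% at 3′ ends, a difference of 1.601 points (exact test, p = 0.104). The cause of these changes was not tested. The alternatives for the pair and those without paired members were chosen after seeing the data. No paired analysis was possible because there was 1 library per allele. About 9 members per bin in the 542 library limit what bins can show, and a first aligned base can be off by a few bp.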
